A study of Homo sapiens with 8 samples.

Results

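The 10 genes described here encode the hormones, granule proteins and regulators of enteroendocrine cells, the hormone-secreting cells of the gut lining. They were chosen by name, with earlier results of these data known, and matched by gene symbol. All 10 were listed among the 63241 genes of the NCI-H716 tables, and 4 of them (*GCG*, *SCG2*, *PCSK1* and *NEUROD1*) among the 28043 genes of the HCT116 table, which reaches from chromosome 1 into chromosome 9 and was used as far as it goes. The other 6 genes therefore have NCI-H716 values only. RNA-seq was performed on control cells of the lines HCT116 and NCI-H716, both human, and on cells of each line given Z325 (ZINC000101867325), a small molecule picked by docking to the FGF receptors. HCT116 is an epithelial colorectal carcinoma line, and NCI-H716 is a colorectal carcinoma line with endocrine features that is used as a model of the gut L cell. Each of the 4 groups had 2 libraries, which the study describes as biological duplicates, and each library was amplified by a full-length single-cell cDNA protocol from about 100 cells. The labels state neither the dose and time of the RNA-seq treatment nor what the control cells received.

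Total counts per library lay between 10210239 and 19738840 in NCI-H716 and between 3434620 and 13396225 in HCT116, where Z325 replicate 2 was the shallow library. The files gave no identical or near-identical pair of libraries. With 2 libraries against 2, an exact permutation test of a single gene cannot go below p = 0.333, so each test reported is edgeR's quasi-likelihood test, which shares its estimate of the spread across all tested genes of a line.

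Enteroendocrine cells store peptide hormones in dense-core granules and release them when nutrients or nerves raise calcium or cyclic AMP in the cell. Granins (*CHGA*, *CHGB*, *SCG2*, *SCG3* and *SCG5*) are acidic proteins that help to pack the granule, and prohormone convertases such as *PCSK1* cut hormone precursors into active peptides. In the L cell the proglucagon gene *GCG* gives GLP-1, GLP-2 and oxyntomodulin, and *PYY* gives peptide YY. The zinc finger factor *INSM1* and the basic helix-loop-helix factor *NEUROD1* switch on endocrine genes during differentiation.

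The promoters of these genes were searched for the letters of a few control elements, and the stretches with the full cyclic AMP element or with paired E-boxes are shown. RefSeq promoter windows (GRCh38.p14) were found for 7 of the 10 genes (*GCG*, *PYY*, *CHGA*, *SCG3*, *SCG5*, *PCSK1* and *NEUROD1*), in 9 windows, and the 250 bases before each start were searched on both strands. Printed sequences run 5′ to 3′ on the gene's own strand, and capitals mark the matched letters. The cyclic AMP response element TGACGTCA, bound by CREB factors, was present upstream of *CHGA* and of 1 of 2 starts of *PCSK1*, and in 1.65% of all 35116 windows. The shorter TGACG, which is contained in the full element, was present in 21.2% of all windows and in 5 of the 9 windows here. These were 1 window each of *CHGA*, *PCSK1*, *SCG5*, *NEUROD1* and *PYY*, and those of *CHGA* and *PCSK1* are the ones with the full element. The *CHGA* element starts 54 bases before the start site (chr14:92922900-92923149, plus strand), and the *PCSK1* element 77 bases before it, with a further TGACG at 49 bases (chr5:96433249-96433498, minus strand):
CHGA: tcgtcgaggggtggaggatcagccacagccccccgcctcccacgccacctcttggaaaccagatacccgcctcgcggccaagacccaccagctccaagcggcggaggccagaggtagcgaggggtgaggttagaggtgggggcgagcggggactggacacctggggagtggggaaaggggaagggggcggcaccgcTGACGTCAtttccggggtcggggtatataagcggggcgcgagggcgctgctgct
PCSK1: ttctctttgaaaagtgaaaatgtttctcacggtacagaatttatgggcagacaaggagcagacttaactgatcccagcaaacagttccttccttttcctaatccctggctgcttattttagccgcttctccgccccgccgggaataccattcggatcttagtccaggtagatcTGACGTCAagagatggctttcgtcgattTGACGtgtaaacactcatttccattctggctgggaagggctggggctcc
The other *PCSK1* start had neither form but held CAGCTG and TATAAA.

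Basic helix-loop-helix factors bind E-boxes, of which CAGATG and CAGCTG were searched. CAGATG was found in 12.2% of all windows and had 2 matches upstream of *GCG*, starting 147 and 90 bases before its start. CAGCTG was found in 13.99% of windows and had 2 matches upstream of *SCG3*, at 226 and 174 bases before its start. TATAAA, the TATA box, was found in 10.7% of windows and lies 30 bases before the *GCG* start. The stretches shown are the nearer *GCG* match, which stands beside a reversed TATA letter run (chr2:162152314-162152343, minus strand), and the *SCG3* window up to its first annotated exon (chr15:51681253-51681491, plus strand):
GCG: tatttaCAGATGagaaaTTTATAttgtcag
SCG3: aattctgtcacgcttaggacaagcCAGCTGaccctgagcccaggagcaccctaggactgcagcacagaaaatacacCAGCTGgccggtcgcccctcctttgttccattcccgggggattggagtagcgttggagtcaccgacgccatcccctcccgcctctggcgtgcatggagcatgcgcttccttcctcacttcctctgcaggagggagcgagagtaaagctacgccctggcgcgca
The homeodomain letters TAATTA (4.35% of windows) and the spaced form TGACNNNGC (10.9%) were in none of the members' windows. These matches are letter patterns only, and no binding was measured in this series. The RefSeq starts used for *GCG* and *PCSK1* lie inside the gene bounds given below, so their printed stretches fall within the annotated genes.

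In NCI-H716 control cells the 10 genes ran from among the most abundant transcripts of the cell to none at all. Levels between genes are compared as FPKM, which is per length. *GCG* stood first at 3088 and 2544 FPKM in the 2 control libraries, rank 56 and 90 of all genes, and took 0.250% and 0.203% of all counts. *CHGB* followed at 203 and 242 FPKM, *SCG3* at 85.5 and 103, *CHGA* at 69.3 and 76.9, *PCSK1* at 31.8 and 31.7, *SCG2* at 9.96 and 13.9, *SCG5* at 7.57 and 9.33 and *INSM1* at 3.62 and 3.37. Neighbours in this order did not overlap between their 2 control libraries, down to *INSM1*. *NEUROD1* had 1 count in control replicate 1 and 0 in the other 3 NCI-H716 libraries, and *PYY* had 0 counts in all 4, so these last 2 genes cannot be ordered.

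The use of the line as an enteroendocrine model was set against marker lists. *GCG*, all 5 granins and *PCSK1* were present, while *PYY* and *NEUROD1* were at or near 0 and 7 of 15 other gut hormone and amine genes (*CCK*, *GIP*, *SCT*, *MLN*, *GHRL*, *GAST* and *PPY*) had 0 counts in all 4 libraries. From the same 15 genes, *NPW*, *NTS* and *SST* were present in controls, at 133 ± 94.8, 88.8 ± 7.68 and 45.7 ± 7.62 FPKM (SD, n = 2). Among the 19 other endocrine transcription factors, 13 had a mean above 1 FPKM in control cells. Of the goblet cell list, 8 of 10 genes had a mean above 1 FPKM in control cells, led by *TFF3* at 6956 FPKM, *AGR2* at 6138 and *SPINK4* at 237. *GUCA2B*, which encodes the absorptive-cell peptide uroguanylin, stood at 3054 FPKM. Of the absorptive list 6 of 14 genes had a mean above 1 FPKM in control cells, and *GUCA2B* made up most of the list's sum. The line thus held abundant RNA of goblet markers and of *GUCA2B* beside *GCG* and the granins, and *PYY* was not detected.

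**Figure D1:**
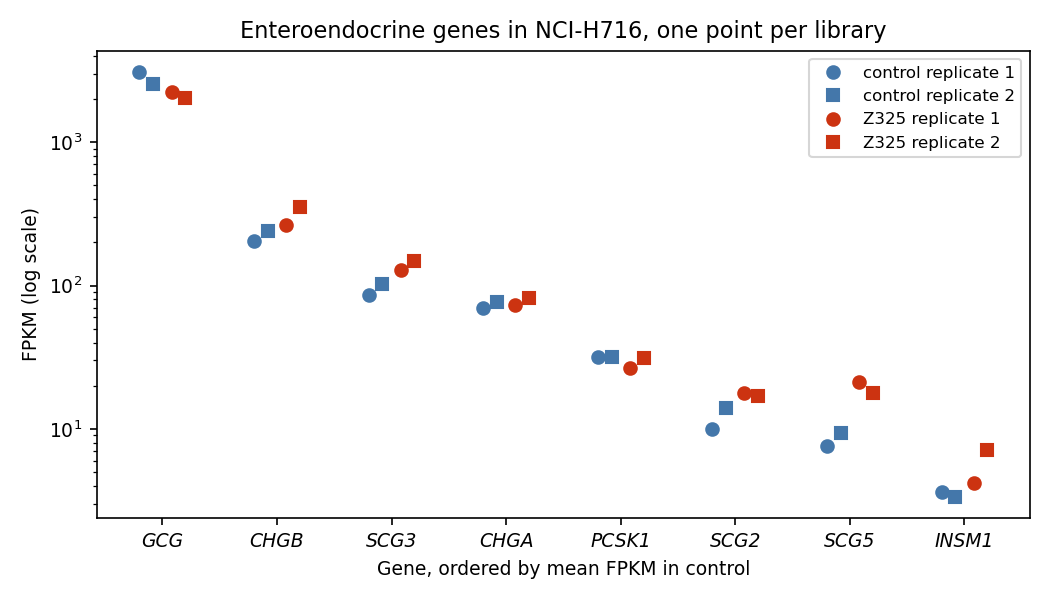
Levels of the 8 expressed members in the 4 NCI-H716 libraries, as FPKM on a log axis, in order of their control mean, with blue for control, red for Z325, circles for replicate 1 and squares for replicate 2. *GCG* stands between 2036 and 3088 FPKM, *CHGB*, *SCG3*, *CHGA* and *PCSK1* lie between 26.5 and 355, and *PYY* and *NEUROD1*, at or near 0, are not drawn.

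The first question was how the hormone and granule genes of NCI-H716 stood after Z325. *GCG* was lower in both treated libraries than in both controls, and 6 genes (*CHGB*, *SCG2*, *SCG3*, *SCG5*, *PCSK1* and *INSM1*) were higher in both by counts, *PCSK1* not by FPKM. *CHGA* overlapped between the groups. Of the 8 genes with enough counts to test, 0 passed an adjusted p of 0.05 by edgeR, where 0.502% of all 14142 tested genes passed. At an unadjusted edgeR p under 0.05 there were 5 genes on the higher side, where 7.59% of all genes stood, and 1 on the lower side, where 9.27% stood. Limma on log2(FPKM + 1) called 0 of the 8 genes, but it called only 6 genes in all, so this says little about them. DESeq2, which called 308 genes in all, called 1 of the 8 genes, *SCG5*. Without Z325 replicate 1 edgeR called 3 of them (*CHGB*, *SCG5* and *INSM1*), and without Z325 replicate 2 it called *SCG5*. Complete separation of the 2 libraries of each group was itself common, at 24.3% of all genes on the higher side against 6 of the 8 here, or 5 without *PCSK1*, and 25.2% on the lower side against 1. The median log2 difference of the 8 genes was 0.46, with 7 above 0 (6 when *PCSK1* is read by FPKM), against −0.01 over all tested genes, of which 6982 were above 0 and 7160 below. Without Z325 replicate 2 the median of the members was 0.27.

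**Figure D2:**
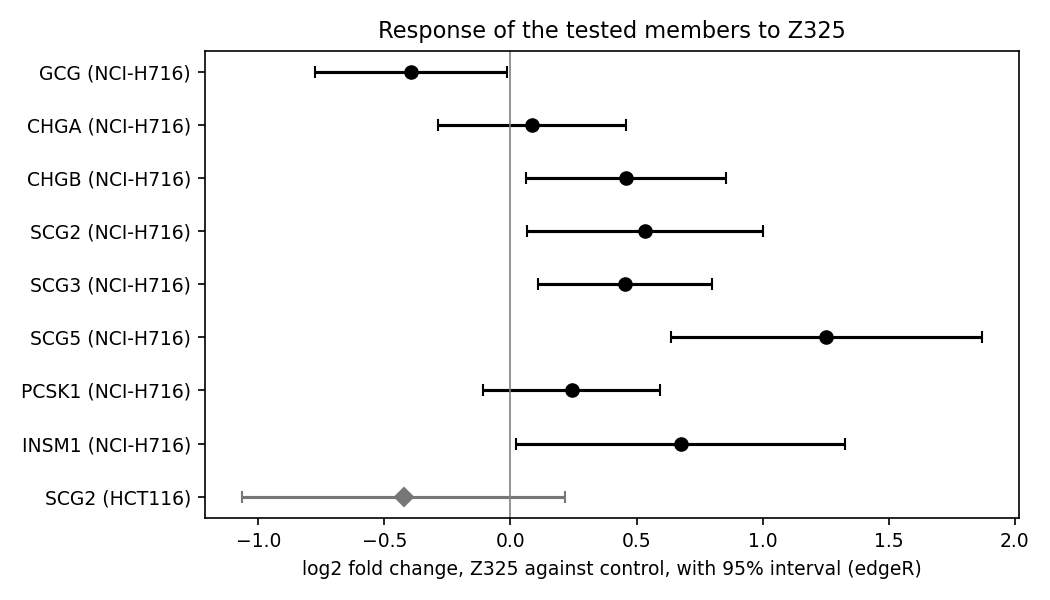
Log2 fold change between Z325 and control (horizontal axis) for the 8 genes tested in NCI-H716, in black, and for *SCG2* in HCT116, in grey, with 95% intervals from edgeR as bars. *SCG5* has the highest value at 1.25, *GCG* is at −0.39, and the intervals of *CHGA*, *PCSK1* (below 0 when FPKM is used) and *SCG2* in HCT116 span 0.

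Proglucagon is taken first among the hormones. *GCG* (ENSG00000115263, GRCh38 chromosome 2, 162142882 to 162152404, minus strand) stood at 2536 and 2011 CPM, counts scaled to library size, in the controls and at 1820 and 1638 CPM with Z325. Both treated libraries lay under the lower control, and the gap between the 2 controls was larger than the gap from the lower control to the nearer treated library. The means were 2273 ± 371 and 1729 ± 129 CPM (SD, n = 2), a log2 difference of −0.39 (SE 0.17, 95% interval −0.77 to −0.01, edgeR adjusted p = 0.285). Without control replicate 1 the difference was −0.21. Its FPKM rank was 104 and 139 in the treated libraries, so the gene stayed among the most abundant transcripts. In RNA pooled from many cells, fewer cells with a transcript and less of it per cell cannot be told apart.

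*PYY* (ENSG00000131096, chromosome 17, 43952733 to 44004469, minus strand), the partner hormone of GLP-1 in L cells, had 0 counts in every library. A floor of 3 counts is 0.152 to 0.294 CPM in these libraries, for counting error only.

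Of the 15 other hormone and amine genes fixed as a list, 3 could be tested and 0 passed the adjusted threshold by edgeR. All 3 lay lower with Z325, 2 of them at an unadjusted edgeR p under 0.05, where 9.27% of all tested genes stood on that side, and their median log2 difference was −0.84. *SST*, which encodes the inhibitory hormone somatostatin, was at 15.3 and 17.6 CPM in controls and 9.67 and 8.73 CPM with Z325. The log2 difference was −0.84 (SE 0.24, edgeR adjusted p = 0.158) and the groups did not overlap. *NPW*, the neuropeptide W precursor, was at 105 and 32.2 CPM in controls and 22.8 and 7.72 CPM with Z325, with no overlap but a wide spread within each group (log2 difference −2.19, SE 0.55, edgeR adjusted p = 0.120). *NTS*, which encodes neurotensin, differed by −0.17 on the log2 scale (edgeR adjusted p = 0.657). The summed level of the list was 203 to 336 FPKM in controls and 125 to 158 FPKM with Z325.

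The granins were not alike in size of difference. *CHGB* (ENSG00000089199, chromosome 20, 5911510 to 5925353, plus strand), the most abundant granin of the line, stood at 457 and 524 CPM in controls and 584 and 764 CPM with Z325. The treated libraries were both above the controls but far apart from each other. The means of 491 ± 46.9 and 674 ± 127 CPM (SD, n = 2) gave a log2 difference of 0.46 (SE 0.18, 95% interval 0.06 to 0.85, edgeR adjusted p = 0.244). Without Z325 replicate 2 the difference was 0.27.

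*SCG3* (ENSG00000104112, chromosome 15, 51681492 to 51721026, plus strand), a granin that tethers other granins to the granule membrane, was at 232 and 257 CPM in controls and 325.3 and 345 CPM with Z325. Its 2 groups were well apart for their spread. The log2 difference was 0.46 (SE 0.16, 95% interval 0.11 to 0.80, edgeR adjusted p = 0.201), or 1.37-fold.

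*SCG2* (ENSG00000171951, chromosome 2, 223596940 to 223602361, minus strand), the precursor of secretoneurin, was at 22.2 and 29.9 CPM in controls and 39.0 and 36.3 CPM with Z325. The treated libraries lay close together and the controls farther apart. The log2 difference was 0.53 (SE 0.21, 95% interval 0.07 to 1.0, edgeR adjusted p = 0.246), or 1.45-fold. Without control replicate 1 the difference was 0.34.

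*SCG5* (ENSG00000166922, chromosome 15, 32641676 to 32697098, plus strand), which encodes the 7B2 chaperone of the convertase *PCSK2*, was at 4.76 and 5.61 CPM in controls and 13.2 and 11.5 CPM with Z325. Both treated libraries were above the higher control by more than the spread within either group. The log2 difference was 1.25 (SE 0.28, 95% interval 0.64 to 1.87, edgeR adjusted p = 0.0926), or 2.38-fold. Of the 8 tested members it alone had both a log2 difference above 1 and an unadjusted edgeR p under 0.05, as 2.01% of all tested genes had on the higher side. Its counts were low, at 63 and 58 in controls and 173 and 230 with Z325. *SCG5* shares 51.4% of its exon bases with the readthrough gene *ARHGAP11A-SCG5*, to which the estimate gave 16.5 and 0 counts in controls and 4.47 and 20.5 with Z325, so the value is uncertain.

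*CHGA* (ENSG00000100604, chromosome 14, 92923150 to 92935285, plus strand), the granin used clinically as a neuroendocrine marker, was at 92.6 and 103 CPM in controls and 97.2 and 110 CPM with Z325. Here the groups overlapped. The log2 difference was 0.08, and its 95% interval of −0.29 to 0.46 spans 0 (edgeR adjusted p = 0.840).

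Precursor processing was read from the convertase and a list of partners. *PCSK1* (ENSG00000175426, chromosome 5, 96390333 to 96434143, minus strand) was at 109 and 108 CPM in controls and 130 and 127 CPM with Z325. The replicates nearly coincided and the groups did not overlap, with a log2 difference of 0.24 (SE 0.16, 95% interval −0.11 to 0.59, edgeR adjusted p = 0.463). The direction depended on the unit. In FPKM the gene was at 31.8 and 31.7 in controls and 26.5 and 31.0 with Z325, and limma on log2(FPKM + 1) gave −0.14. The effective length by which counts are divided was estimated at 3375 and 3452 bases in controls and 4855 and 4131 bases with Z325, 31.6% longer in the mean, while for the other expressed members it moved by −6.92 to 2.599%. No direction is given for *PCSK1* for this reason.

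Of 16 other processing and granule cargo genes, 10 were tested, 7 lay above 0 and 3 below, with a median log2 difference of 0.10 and 0 past the adjusted threshold by edgeR (2 on the higher side at an unadjusted p under 0.05). *NUCB2*, the nesfatin precursor, had the smallest p of the list. It was at 210 and 209 CPM in controls and 334 and 302 CPM with Z325 (log2 difference 0.60, SE 0.16, edgeR adjusted p = 0.126), with no overlap. *CPE*, the carboxypeptidase that trims prohormones after the convertases, differed by 0.14, and *BEX1* by −0.21. Summed over the list, the level was 1057 to 1125 FPKM in controls and 1113 to 1206 FPKM with Z325.

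Among the endocrine transcription factors, *INSM1* (ENSG00000173404, chromosome 20, 20368104 to 20370949, plus strand) was at 9.60 and 8.61 CPM in controls and 10.8 and 18.2 CPM with Z325. Only Z325 replicate 2 stood far above the rest. The log2 difference of 0.68 (SE 0.29, 95% interval 0.02 to 1.33, edgeR adjusted p = 0.285) was 0.26 without that library and 1.003 without Z325 replicate 1. *NEUROD1* (ENSG00000162992, chromosome 2, 181668295 to 181680827, minus strand) was too low to test.

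Of the 19 other endocrine transcription factors, 12 were tested, 7 above 0 and 5 below, with a median of 0.02 and 0 past the adjusted threshold by edgeR (2 on the lower side at an unadjusted p under 0.05). *RFX6*, a factor for incretin-producing cells, was at 8.61 and 6.68 CPM in controls and 3.73 and 3.96 CPM with Z325, without overlap (log2 difference −0.99, SE 0.33, edgeR adjusted p = 0.191). *HES6* differed by −0.64 (edgeR adjusted p = 0.191). *ISL1* and *SOX4* lay at 0.06 and 0.04. *NEUROG3*, the factor that starts the endocrine lineage, had 1 count in Z325 replicate 1 and 0 in the other libraries.

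Since *GCG* and most granule genes lay on opposite sides of 0, their ratio within each library was examined, which does not depend on library size. *GCG* over *CHGB*, in FPKM, was 15.2 and 10.5 in controls and 8.50 and 5.74 with Z325. *GCG* over *SCG3* was 36.1 and 24.7 in controls and 17.4 and 13.7 with Z325. The controls were above the treated libraries in both ratios. The same order without overlap held for *GCG* over *CHGA*, *SCG2*, *SCG5* and *INSM1*, whereas *GCG* over *PCSK1* overlapped, at 97.1 and 80.3 against 84.9 and 65.6. Over the summed FPKM of the 5 granins, *GCG* stood at 8.22 and 5.72 in controls and 4.44 and 3.28 with Z325. The ratios are a description only, since they share *GCG* as numerator and were formed after the directions were seen. By FPKM *GCG* was lower and *CHGB*, *SCG2*, *SCG3*, *SCG5* and *INSM1* were higher in both treated libraries, so those ratios could not overlap. They add no evidence to the single genes. Over *SCG2* the controls, at 310 and 183, lay farther apart than the group means of 246 and 123, and the same held over *CHGA*.

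**Figure D3:**
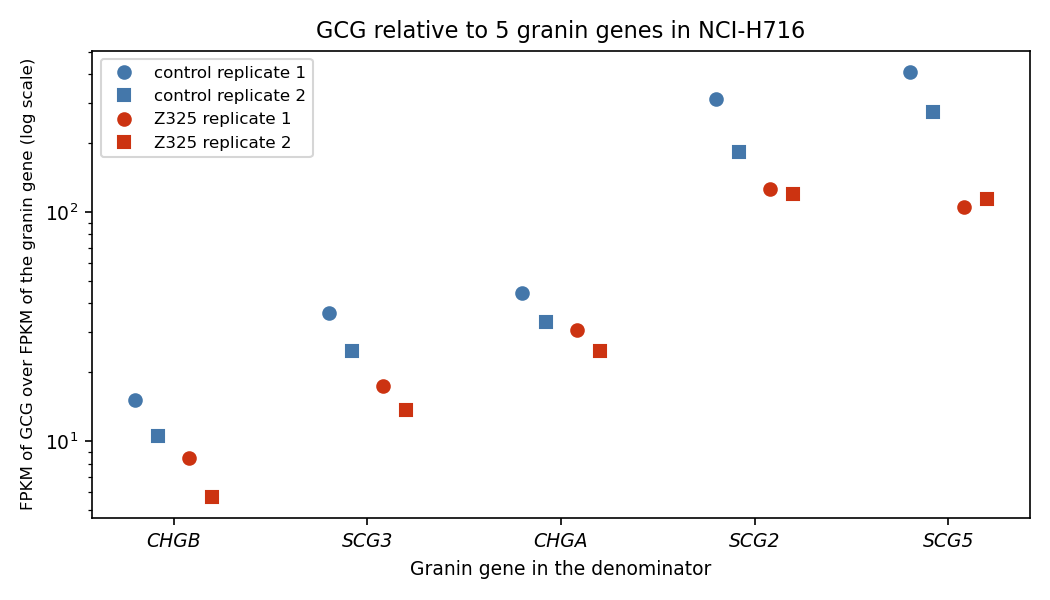
*GCG* FPKM divided by the FPKM of each of the 5 granin genes in each NCI-H716 library, on a log axis, with blue for control, red for Z325, circles for replicate 1 and squares for replicate 2. Over *CHGB* the values are 15.2 and 10.5 in controls and 8.50 and 5.74 with Z325, and for each granin both treated libraries lie under both controls. Except for *CHGA*, this order follows from the values of the single genes.

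*GCG* made up 88.3 and 84.1% of the summed FPKM of the 10 genes in controls and 80.7 and 75.6% with Z325. The summed granins were at 376 and 445 FPKM in controls and 507 and 620 FPKM with Z325. The order of levels was otherwise kept, except that *SCG5* and *SCG2* exchanged places with Z325 and overlapped there, at 21.3 and 17.8 FPKM for *SCG5* and 17.9 and 17.0 FPKM for *SCG2*.

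HCT116 was compared to see whether the same genes were expressed and moved there. *GCG* and *NEUROD1* had 0 counts in all 4 HCT116 libraries, where a floor of 3 counts is 0.224 to 0.873 CPM. *PCSK1* had 0 counts in both controls and 2 and 0 with Z325. On the FPKM scale over shared genes, *GCG* in NCI-H716 controls was at least 20475-fold higher than in HCT116 controls, and *PCSK1* at least 1101-fold higher, each taken as the lower NCI-H716 library over the higher HCT116 floor of 3 counts per library. The 2 lines were quantified with different programs, so these folds are given side by side without a test.

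*CHGA*, *CHGB*, *SCG3*, *SCG5*, *INSM1* and *PYY* have no HCT116 value. Of the 4 members listed for HCT116, *SCG2* alone was expressed in both lines. In HCT116 it was at 20.5 and 22.5 CPM in controls and 14.6 and 17.7 CPM with Z325, from 187 and 62 counts in the treated libraries. There the treated libraries lay under the controls, as 29% of all tested HCT116 genes did. The means of 21.5 ± 1.41 and 16.2 ± 2.21 CPM (SD, n = 2) gave a log2 difference of −0.42 (SE 0.28, 95% interval −1.06 to 0.22, edgeR adjusted p = 0.407). The adjusted threshold was passed by 5.78% of the 6491 genes tested in that line by edgeR, and *SCG2* was not among them. DESeq2 called 726 genes there, without *SCG2*. Limma on log2(FPKM + 1) called 0 genes there, so its missing call of *SCG2* carries no information. With genes at a mean of 1 FPKM or more limma called 35, without *SCG2*. The unadjusted edgeR p of *SCG2*, 0.167, was above 0.05 too, where 23.9% of the genes stood below.

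The difference between the 2 lines in the response of *SCG2* was then tested. Subtracting the HCT116 log2 difference from that of NCI-H716 gave 0.95 (SE 0.32, 95% interval 0.24 to 1.66), with an edgeR interaction p of 0.0128 and an adjusted p of 0.235 over 7642 genes, of which 0.0654% passed. The difference was therefore not established across all genes. On FPKM over genes shared by both tables, *SCG2* was at 8.26 and 8.65 in HCT116 controls and at 20.04 and 26.9 in NCI-H716 controls, a ratio of 2.77. With Z325 the levels were 5.42 and 7.005 in HCT116 and 34.3 and 31.8 in NCI-H716, a ratio of 5.31.

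**Figure D4:**
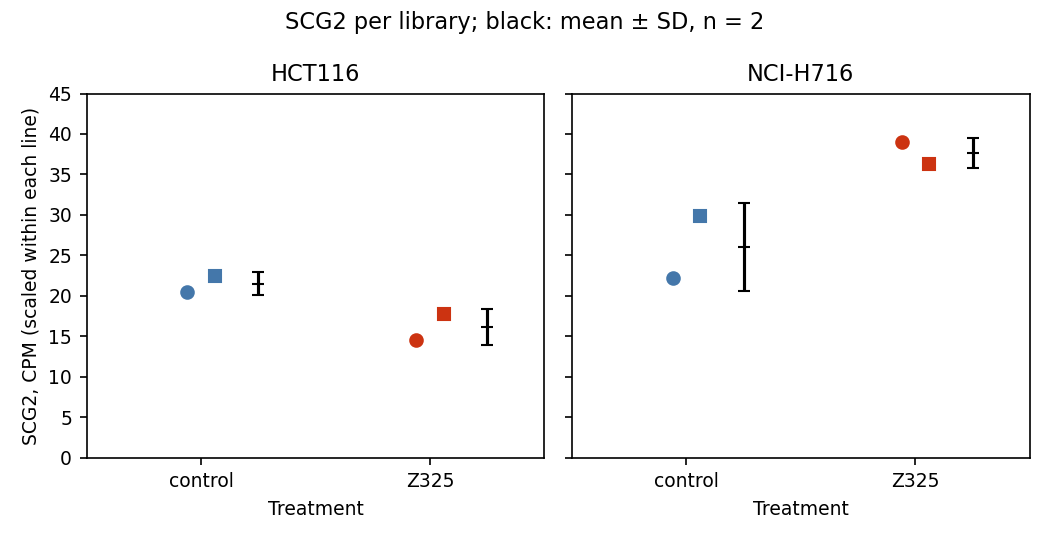
*SCG2* in CPM, scaled within each line, in each library of HCT116 (left) and NCI-H716 (right), with blue for control, red for Z325 and black for the mean ± SD (n = 2). In HCT116 the treated libraries (14.6 and 17.7) lie under the controls (20.5 and 22.5), and in NCI-H716 the treated libraries (39.0 and 36.3) lie above them (22.2 and 29.9).

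Other genes of the pathway in HCT116 were mostly silent or outside the listed chromosomes. Among the exceptions, the granule cargo genes *CPE* and *PAM* stood at 65.9 and 74.2 CPM and at 81.4 and 73.9 CPM in HCT116 controls. *SOX4*, a factor of endocrine progenitors among other roles, fell there from 580 and 455 CPM to 220 and 191 CPM (log2 difference −1.33, SE 0.16, edgeR adjusted p = 0.00499), while the NCI-H716 values were 254 and 263 CPM in controls and 287 and 245 CPM with Z325. That the 2 lines differ for *SOX4* was not tested here. Of the endocrine transcription factors 5 were tested in HCT116 and 1 passed. *HES6* was at 20.8 and 21.6 CPM in HCT116 controls and 8.59 and 11.4 CPM with Z325 (log2 difference −1.10, edgeR adjusted p = 0.0738). The granule cargo list had 4 tested genes and 0 past the adjusted threshold by edgeR (1 on the higher side at an unadjusted p under 0.05). *VGF*, a granin-like neuropeptide precursor picked after its values were seen, was at 3.40 and 3.22 CPM in HCT116 controls and 6.95 and 30.3 CPM with Z325, most of it from the shallow library (edgeR adjusted p = 0.0634).

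The release machinery and the nutrient-sensing genes of NCI-H716 centred near 0. Of 28 genes for regulated exocytosis 23 were tested, 13 above 0 and 10 below, with a median log2 difference of 0.06 and 0 past the adjusted threshold by edgeR (1 on each side at an unadjusted p under 0.05). *RPH3AL*, a RAB3 and RAB27 effector on granules, was at 3.55 and 5.32 CPM in controls and 7.69 and 8.08 CPM with Z325 (log2 difference 0.84, SE 0.33, edgeR adjusted p = 0.245). The most abundant genes of the list, *RAB3C*, *RAB27A* and *SYT1*, which tether granules or sense calcium, differed by 0.09, 0.05 and 0.06.

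Of 20 receptors, channels and other nutrient and excitability genes, 9 were tested, 5 above 0 and 4 below, with a median of 0.02. None passed the adjusted threshold by edgeR, and 0 stood at an unadjusted p under 0.05. *GPBAR1*, the bile acid receptor that triggers GLP-1 release, had the smallest p, at 2.27 and 1.65 CPM in controls and 0.990 and 0.552 CPM with Z325 (log2 difference −1.37, SE 0.63, edgeR adjusted p = 0.302). The short-chain fatty acid receptor *FFAR2* differed by 0.28, *GNAT3* by −0.23 and *GPRC5C* by −0.51.

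**Figure D5:**
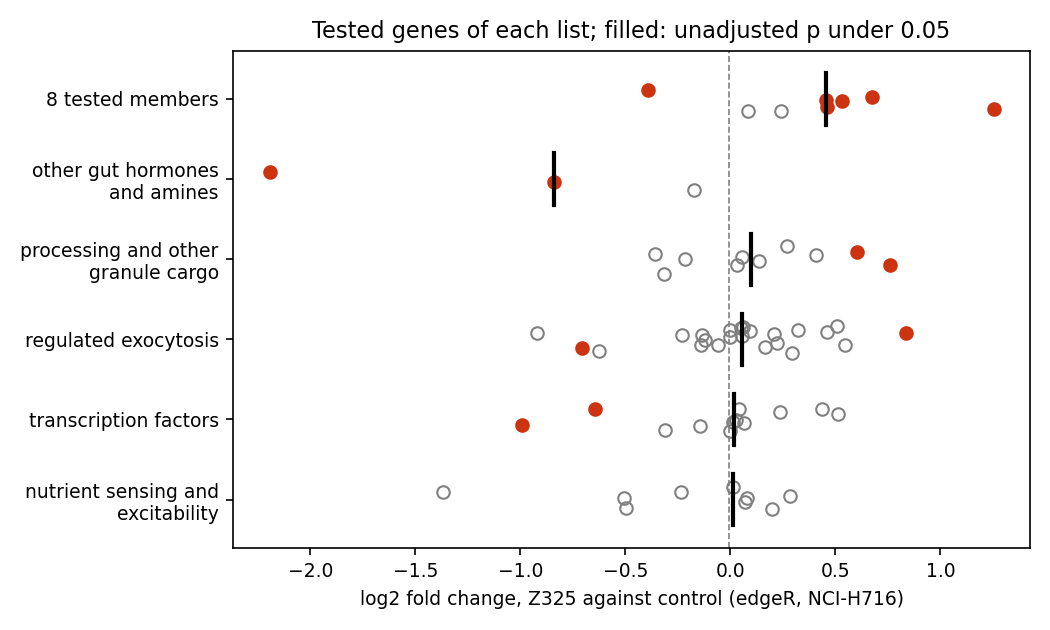
Log2 fold changes between Z325 and control in NCI-H716 for the tested genes of 6 lists, 1 point per gene, filled red at an unadjusted edgeR p under 0.05, with the list median as a black bar and vertical offsets only to separate points. The 8 tested members have a median of 0.46, the exocytosis list 0.06 and the 3 other hormones −0.84.

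Markers of other cell types were read beside these values in NCI-H716, and 1 gene of those lists passed the adjusted threshold by edgeR. Of the absorptive list 6 of 14 genes were tested and 5 lay lower, with a median log2 difference of −0.84. All 5 stood at an unadjusted edgeR p under 0.05, where 9.27% of all tested genes stood on that side. The summed level was 3174 to 3182 FPKM in controls and 1524 to 2341 FPKM with Z325. *GUCA2B* was at 3054 FPKM in controls and 1858 FPKM with Z325. Its relative *GUCA2A*, which encodes guanylin, had a log2 difference of −0.90 (edgeR adjusted p = 0.118), and the sucrase-isomaltase gene *SI* one of −0.55. Of the goblet list 9 of 10 were tested, and the 1 that passed was the mucin gene *MUC2*, which fell from 48.9 and 44.5 CPM to 19.1 and 10.8 CPM (log2 difference −1.65, SE 0.27, edgeR adjusted p = 0.0246). Of the tested goblet genes 4 lay above 0 and 5 below, with a median log2 difference of −0.24. On the lower side 3 of them stood at an unadjusted edgeR p under 0.05, and 0 on the higher side. The goblet sum was 13315 to 13726 FPKM in controls and 13728 to 15038 FPKM with Z325.

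Stem cell markers summed to 48.6 to 62.8 FPKM in controls and 60.6 to 77.3 FPKM with Z325, with 3 of 10 genes tested, mostly from *CD44* (log2 difference 0.22), with *RNF43* at 0.01 and *SOX9* at 0.49. Of the mesenchymal and blood list 4 of 10 genes were tested, 2 above 0 and 2 below. The 2 above 0 stood at an unadjusted edgeR p under 0.05, where 7.59% of all tested genes stood on that side. The sum was 103 to 118 FPKM in controls and 142 to 176 FPKM with Z325. *COL3A1*, a fibrillar collagen gene, made up most of that sum, *CD68* was at 2.46 and 1.65 FPKM in the group means, and the haemoglobin gene *HBB* had 21 and 34 counts in controls and 64 and 153 with Z325. Mitochondrial transcripts took 9.40 and 8.77% of counts in controls and 7.92 and 7.14% with Z325. At 0 counts in all 4 libraries were *FABP1* of the absorptive list and *ASCL2* and *PROM1* of the stem list, while the fibroblast, endothelial and leukocyte markers *DCN*, *PECAM1*, *PTPRC* and *CD3E* had too few counts to test. The number of genes with any count was 22451 and 21130 in controls and 25030 and 24289 with Z325. The part of these shifts in the hormone and granule values was not tested.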

How the data were processed

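RNA-seq of HCT116 and NCI-H716 cells was analysed as 2 control and 2 Z325 libraries per line, grouped by their labels. The study's methods state, for its RNA-seq as a whole, that the authors trimmed reads with TrimGalore, aligned them with STAR to GRCh38 and estimated levels with RSEM. The deposited NCI-H716 tables give expected counts, TPM and FPKM per gene, with effective lengths. For HCT116 the authors deposited raw counts per gene with exon lengths in the layout of featureCounts. The submitters' processing notes instead name Bowtie2 2.5.0, featureCounts and hg38, so the sources conflict on the aligner behind the HCT116 counts. The strand setting is not given in the sources used here. The HCT116 table covers chromosomes 1 to 8 and part of 9, and 4 of its 28047 lines were not used. Gene names of NCI-H716 came from GENCODE 44, which matched 62666 of 63241 IDs.

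Before the tests, expected counts were rounded. Each line was fitted on its own with edgeR 4.0.16 (R 4.3.3; filterByExpr, TMM, quasi-likelihood test, 2 libraries per group), and Benjamini-Hochberg adjustment ran over all tested genes. The interaction of treatment and line was fitted over shared genes. A member was tested there only with 10 or more counts in each line. DESeq2 1.42.0 and limma 3.58.1 on log2(FPKM + 1) were alternatives, besides other filters, a replicate block and leaving out each library. CPM use TMM-scaled library sizes. FPKM of both lines were recomputed over the 28015 shared genes for levels between lines. Intervals are 95% and floors are 3 counts per library. The procedure was also run on simulated counts, with changes larger than those of the members and only in well-counted genes. That run does not show how well changes of the members' size are found.

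The members and gene lists were chosen with earlier results of these data known. Besides the members, most named genes were picked by a rule for each list. It took those past an adjusted p of 0.05 in either line, the smallest p in NCI-H716 and the 3 highest in FPKM in NCI-H716 controls. Outside this rule, *VGF*, *PAM* and the genes named for few or 0 counts were picked after their values were seen.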

Additional observations from a re-analysis of the deposited data

Results flagged for a closer look

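The difference of *SCG2* between Z325 and control had opposite signs in the 2 lines. The log2 difference between Z325 and control in NCI-H716 minus that in HCT116 was 0.95 (SE 0.32, with an unadjusted edgeR interaction p of 0.0128), and it did not pass after adjustment over all tested genes (edgeR adjusted p = 0.235). Both treated libraries lay above both controls in NCI-H716 and under both controls in HCT116.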

How the results depend on the processing

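The 16 results gave 191 recomputed values, of which 149 were rated the same. For single genes and the interaction this meant the same direction and side of the threshold. For counts and the median it meant a change within a fixed fold. For *GCG* over *CHGB* it meant a move of less than the control SD, which leaving out a control cannot exceed. The number of members called in NCI-H716, 0 of 8 by edgeR, was 1 with DESeq2 and 1 without a filter on low counts (*SCG5* in both). Calls are not counted for the fits without 1 library, which leave 1 library in a group. In those fits the log2 difference of *CHGB* lay between 0.27 and 0.65. That of *SCG5* lay between 1.14 and 1.38, and that of *INSM1* between 0.26 and 1.003. The median of the members, 0.46, was 0.25 in a fit of all 8 libraries, where 3 members could be tested, and 0.27 to 0.55 with 1 library left out, lowest without Z325 replicate 2. *PCSK1* reversed from 0.24 to −0.14 on log2(FPKM + 1), to −0.15 with a pseudocount of 0.1 and to −0.14 with genes at a mean of 1 FPKM or more. The number of all genes called, 71 in NCI-H716 and 375 in HCT116, was 308 and 726 with DESeq2 and 777 and 683 without the filter. With a minimum of 10 counts HCT116 gave 615. By limma the counts were 6 to 8 in NCI-H716 and 0 to 35 in HCT116, and the fit of all 8 libraries gave 19 in NCI-H716. DESeq2 and the unfiltered fit moved the median over all NCI-H716 genes from −0.01 to 0.12 and 0.13. The *SCG2* difference between lines lay between 0.80 and 1.18, with adjusted p from 0.161 to 0.579.

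The labels number the libraries 1 and 2 in each group without saying what a number shares. Same-numbered libraries deviated together with a correlation of 0.198 in NCI-H716 and −0.0308 in HCT116, over 2 pairs each. With a replicate block 5 of 8 members passed in NCI-H716 (*GCG* lower, with *CHGB*, *SCG2*, *SCG3* and *SCG5* higher). All genes called rose to 2397 of 14142 in that fit, so the block raised calls far beyond the members. It leaves little in 4 libraries from which to estimate the spread. The members' median was 0.45 with the block, and *SCG2* in HCT116 stayed at −0.42. The interaction of *SCG2* was 0.96 with the replicate block (adjusted p = 0.205). The precision is limited by 2 libraries per group, in HCT116 by the shallow Z325 replicate 2 and for *SCG5* and *INSM1* by low counts.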
